A study of Rattus norvegicus with 24 samples.

Results

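The insulin-like growth factor (IGF) system was followed in the CA1 field of the rat hippocampus through 10 genes, chosen by symbol from 14218 genes with a probe set on the array. They are the ligands Igf1 and Igf2, the receptors Igf1r and Igf2r, and the binding proteins Igfbp2, Igfbp3, Igfbp4, Igfbp5, Igfbp6 and Igfbp7. Every probe set annotated with 1 of these symbols alone was taken, which gave 23 probe sets. Total RNA of microdissected CA1 from male Long-Evans rats without any treatment was hybridised to genome-wide Affymetrix arrays. The 8 aged impaired rats and the 6 aged unimpaired rats were 24 to 26 months old, and the 9 young rats were 6 months old. In the Morris water maze, a test of memory for where an escape platform lies, the aged unimpaired rats scored within the range of young rats and the aged impaired rats scored worse. Each array is labelled as a separate biological replicate, so 14 aged and 9 young arrays were compared. CA1 was taken as a whole, with its neurons, glia and vessels, and the groups differ in age and learning only as far as the labels say.

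IGF-1 and IGF-2 are small secreted proteins that act mainly through the tyrosine kinase receptor encoded by Igf1r, which signals through PI3 kinase and MAP kinase. The product of Igf2r takes up IGF-2 and carries it to lysosomes, and the binding proteins hold the ligands outside cells and raise or lower their access to receptors. In the adult rodent brain Igf2 is expressed mainly in the choroid plexus and the leptomeninges, and IGF-2 has been studied in rat hippocampus for its part in memory consolidation.

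Igf2 was the member that stood lower in aged CA1, and Igfbp6 passed the test in the other direction. All values are log2 signals, so a difference of 1 is a doubling, and the same limit of 4 was used throughout to call a probe set dim. Of the 10 genes, 7 had a probe set above 4 in at least 6 arrays, and these were tested. Igf1, Igfbp3 and Igfbp4 had none and are described without a call. In aged against young CA1, 2 of the 7 tested genes were called, meaning an adjusted p under 0.05 over all 9076 genes tested. Over all tested genes 3.71% were called in this comparison, 3.09% higher and 0.628% lower. Of the called genes 83.1% were higher, against 63.9% with each array centred on its median and 73.2% after quantile normalization, and Igf2 was lower and called with all 3 scalings. The median log2 difference, aged minus young, was 0.01 over the 7 genes and 0.01 over all genes.

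Igf2, the ligand bound by both receptors, had a log2 signal with lowest, median and highest values of 6.67, 6.87 and 7.29 in aged impaired arrays and 6.16, 6.63 and 7.23 in aged unimpaired arrays. In young arrays the same values were 6.71, 7.53 and 8.40. Of the 9 young arrays, 8 lay above every aged array, and young replicate 5 was the exception at 6.71. The mean signal was 6.79 ± 0.31 (SD, n = 14) in aged arrays and 7.63 ± 0.51 (SD, n = 9) in young arrays. Aged minus young, Igf2 differed by -0.84 ± 0.16 log2 units (SE), with a 95% interval of -1.16 to -0.51 (limma, Benjamini-Hochberg adjusted p = 0.00249). In linear terms Igf2 was 1.79-fold lower in aged CA1, and its p ranked 67 among all genes tested. In RNA from whole tissue, fewer cells that express a gene and less RNA in each such cell cannot be told apart. When each of the 23 arrays was left out in turn, Igf2 stayed called every time, with differences between -0.95 and -0.74.

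**Figure D1:**
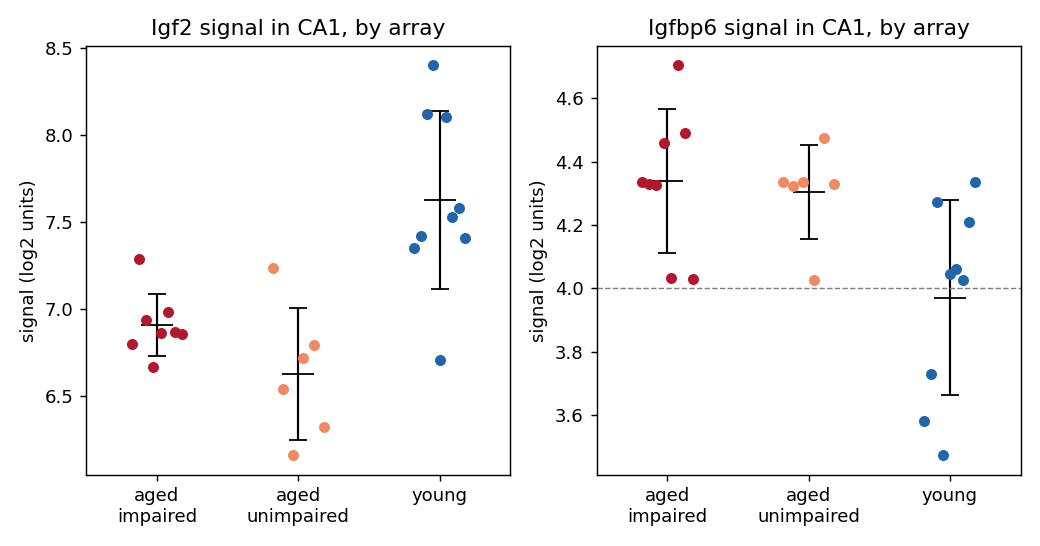
Log2 signal of Igf2 (left) and Igfbp6 (right) in each array of aged impaired, aged unimpaired and young rats, with bars for the mean and SD, on separate axes that do not start at 0. For Igf2, 8 of the 9 young arrays lie above every aged array, while for Igfbp6 the groups overlap around the dashed limit of 4 used to call probe sets dim.

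The Igf2 value rests on 1 of its 4 probe sets. A second probe set, which passed the limit in 6 arrays, had lowest and highest signals of 3.81 and 4.07 in aged arrays and 3.80 and 4.21 in young arrays. Its log2 difference (aged minus young) was -0.08 ± 0.05 (SE; limma over all probe sets, adjusted p = 0.518). The remaining pair of Igf2 probe sets was dim in all arrays, at mean signals of 1.18 and 1.56. With the mean of the passing probe sets in place of the brightest, the Igf2 difference was -0.46 ± 0.08 (SE; limma, adjusted p = 9.19e-04).

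The start regions of Igf2 are shown because it was the member with the largest difference between ages. RefSeq gives a pair of Igf2 start sites on the minus strand of chromosome 1 in the GRCr8 build, with 250 bases before and 50 bases after each start. Capitals mark the GC box, GGGCGG on either strand, a motif that Sp1-family factors can bind.
Igf2, upstream start, chr1:207253931-207254230, minus strand: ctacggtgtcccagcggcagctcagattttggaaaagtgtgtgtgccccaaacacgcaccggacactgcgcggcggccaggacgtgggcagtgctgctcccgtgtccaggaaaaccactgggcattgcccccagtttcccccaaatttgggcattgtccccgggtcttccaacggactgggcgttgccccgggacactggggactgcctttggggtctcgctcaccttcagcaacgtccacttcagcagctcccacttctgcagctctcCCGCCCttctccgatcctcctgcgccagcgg
Igf2, downstream start, chr1:207250426-207250725, minus strand: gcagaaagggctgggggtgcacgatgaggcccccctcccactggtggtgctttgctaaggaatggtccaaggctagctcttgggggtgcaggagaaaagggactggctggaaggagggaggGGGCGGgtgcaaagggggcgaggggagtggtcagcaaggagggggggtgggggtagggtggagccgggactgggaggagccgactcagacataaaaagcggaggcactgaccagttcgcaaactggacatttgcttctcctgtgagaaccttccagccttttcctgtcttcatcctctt
Each window held 1 GC box, written CCGCCC in the first, and neither held the letters TATAAA on either strand. Of 33469 rat promoter windows of the same length, 33.1% held a GC box and 14.2% held TATAAA. Among the 11 windows of the 10 IGF system genes, 6 held a GC box and 1, that of Igfbp4, held TATAAA. A match describes the letters and does not show a bound site, and the arrays did not tell which start site was used.

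Igf1, the ligand through which growth hormone acts on many tissues, was dim in its 3 probe sets. Their mean signals over the 23 arrays were 3.42, 3.67 and 3.75, and at most 1 array of any of them passed the limit. The signals of these probe sets therefore lay near the background of the arrays, and a difference between the groups could not be measured well. Dim probe sets do not tell how much Igf1 RNA the samples held. Without the filter on dim probe sets, the brightest of the 3 had a log2 difference, aged minus young, of -0.04 ± 0.04 (SE; limma, adjusted p = 0.634). The others, which were not tested, had means of 3.39 and 3.63 in aged arrays and 3.48 and 3.74 in young arrays.

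**Figure D2:**
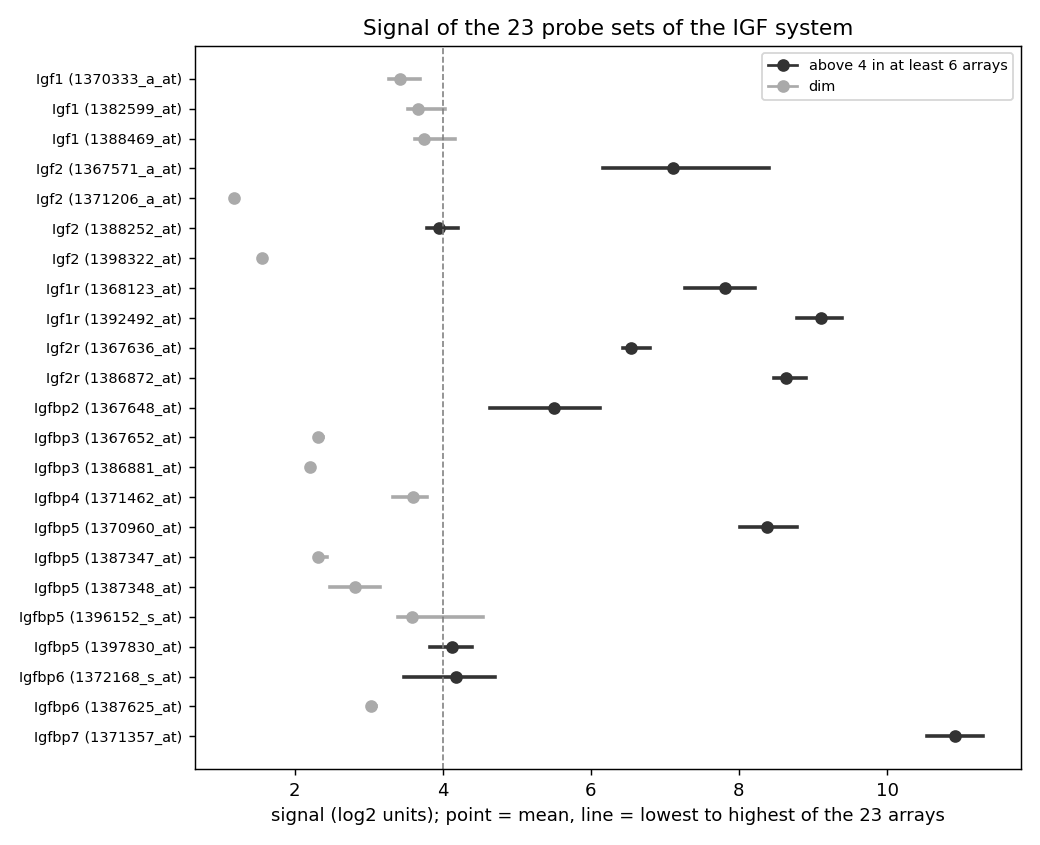
Mean log2 signal of each of the 23 IGF system probe sets over the 23 arrays (point) with the lowest and highest array (line), black where the probe set passed the limit of 4 (dashed) in at least 6 arrays and grey where it was dim. The 11 probe sets that passed cover 7 genes, and signals of different probe sets do not compare amounts of RNA.

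Neither receptor passed the test in any comparison. Igf1r, the receptor that carries the growth signal of both ligands, had lowest, median and highest signals of 8.78, 9.10 and 9.39 in aged arrays and 8.90, 9.07 and 9.38 in young arrays. The ranges lay almost on top of each other. Its log2 difference (aged minus young) was 0.03 ± 0.07 (SE; limma, adjusted p = 0.892), with a 95% interval of -0.11 to 0.18. The other Igf1r probe set had a log2 difference of 0.14 ± 0.09 (SE; limma over all probe sets, adjusted p = 0.547).

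Igf2r, the receptor that clears IGF-2, had lowest, median and highest signals of 8.52, 8.59 and 8.91 in aged arrays and 8.48, 8.58 and 8.79 in young arrays. Its log2 difference (aged minus young) was 0.01 ± 0.04 (SE; limma, adjusted p = 0.971). The 95% interval of -0.08 to 0.10 was the narrowest among the tested members. The other Igf2r probe set gave 0.01 ± 0.04 as well (SE; limma over all probe sets, adjusted p = 0.915).

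Among the binding proteins, 4 of 6 were tested and Igfbp6 alone was called. It was higher in aged minus young, where 3.09% of all tested genes rose. Igfbp6, which binds IGF-2 more tightly than IGF-1, had lowest, median and highest signals of 4.03, 4.33 and 4.70 in aged impaired arrays and 4.03, 4.33 and 4.48 in aged unimpaired arrays. In young arrays they were 3.47, 4.05 and 4.34. All 14 aged arrays and 6 of the 9 young arrays lay above the limit of 4. The groups overlapped, with 4 aged arrays above every young array and 4 young arrays below every aged array.

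The mean Igfbp6 signal was 4.32 ± 0.19 (SD, n = 14) in aged arrays and 3.97 ± 0.31 (SD, n = 9) in young arrays. Aged minus young, it differed by 0.35 ± 0.10 log2 units (SE), with a 95% interval of 0.15 to 0.56 (limma, Benjamini-Hochberg adjusted p = 0.0495). This call lay at the threshold and was lost in 17 of the 23 fits that left out 1 array, with adjusted p up to 0.110. It was kept only without aged impaired replicate 5 or 8, aged unimpaired replicate 4 or young replicate 3, 8 or 9, where adjusted p lay between 0.0284 and 0.0414. It was also lost with no filter, with probe sets as the unit, with each array centred and with equal weight of the aged groups, at adjusted p between 0.0547 and 0.0855. Signals this close to the limit rest on the background correction that the values carry, and the other Igfbp6 probe set was dim at a mean of 3.04.

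The other binding proteins did not pass. Igfbp2, a binding protein abundant in brain and cerebrospinal fluid, had lowest, median and highest signals of 4.63, 5.56 and 5.93 in aged arrays and 4.83, 5.58 and 6.12 in young arrays. Its log2 difference (aged minus young) was -0.07 ± 0.15 (SE; limma, adjusted p = 0.892), with a wide 95% interval of -0.38 to 0.24. The arrays within each group therefore spread more for Igfbp2 than the groups differed.

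Igfbp5, which binds IGFs and extracellular matrix, had lowest, median and highest signals of 8.02, 8.38 and 8.62 in aged arrays and 8.26, 8.38 and 8.78 in young arrays. Its log2 difference (aged minus young) was -0.14 ± 0.07 (SE), with a 95% interval of -0.28 to 0.01 (limma, adjusted p = 0.359). A second passing probe set gave -0.09 ± 0.08 (SE; limma over all probe sets, adjusted p = 0.668), and the other 3 were dim. The medians of the brighter probe set were nearly equal, and the lower aged mean came with an overlap of the ranges. In aged impaired minus young its log2 difference was -0.10 ± 0.08 (SE; limma, adjusted p = 0.562). In aged unimpaired minus young it was -0.18 ± 0.08 (SE; limma, adjusted p = 0.487), with a 95% interval of -0.36 to -0.004.

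Igfbp7, a low-affinity IGF binder found around blood vessels, had lowest, median and highest signals of 10.68, 10.92 and 11.11 in aged arrays and 10.53, 10.89 and 11.30 in young arrays. Its log2 difference (aged minus young) was 0.01 ± 0.07 (SE; limma, adjusted p = 0.972), with a 95% interval of -0.14 to 0.16. Igfbp3, the main carrier of IGFs in blood, was dim in both of its probe sets, at means of 2.32 and 2.21. Igfbp4, a binding protein that PAPP-A cuts, was dim at a mean of 3.60.

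**Figure D3:**
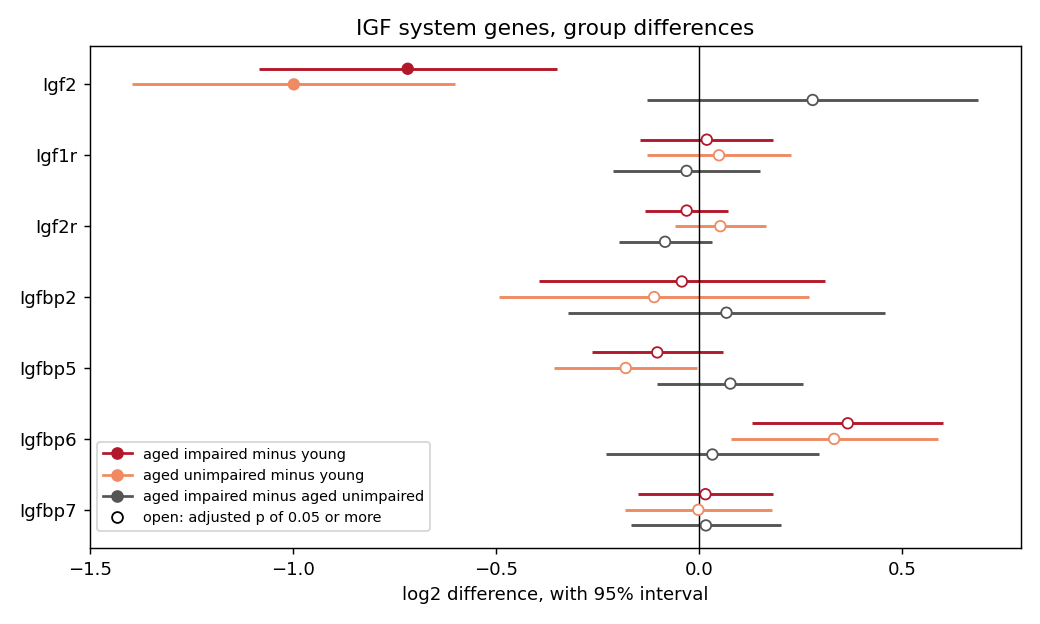
Log2 difference of each tested IGF system gene with its 95% interval for aged impaired minus young, aged unimpaired minus young, and aged impaired minus aged unimpaired, filled where the adjusted p was under 0.05. Igf2 is filled against young in both aged groups, at -0.72 and -0.998, and no gene is filled between the aged groups.

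The aged groups were then set against young arrays one at a time, to see whether the Igf2 difference was present whatever the learning of the aged rats. These comparisons share the young arrays, so their values stand side by side and do not support each other. The log2 difference of Igf2 was -0.72 ± 0.18 (SE) in aged impaired minus young (limma, adjusted p = 0.0221). In aged unimpaired minus young it was -0.998 ± 0.19 (SE; limma, adjusted p = 0.0105). Igf2 was thus lower than young in both aged groups, and in each comparison 8 of the 9 young arrays lay above all aged arrays. It was the only member called there, 1 of 7 in each, where 3.8% of all tested genes were called for impaired rats and 0.76% for unimpaired rats. Igfbp6 had log2 differences of 0.37 ± 0.11 (SE; limma, adjusted p = 0.0759) in aged impaired minus young and 0.33 ± 0.12 (SE; limma, adjusted p = 0.298) in aged unimpaired minus young. Without aged impaired replicate 8 or young replicate 9, Igfbp6 passed in aged impaired minus young, at 0.41 in both cases with adjusted p of 0.0409 and 0.0461.

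Between the aged groups, which differ in learning, no IGF system gene was called with limma. Of all tested genes 0.0% were called, while 629 genes and none of the 7 members had an unadjusted p under 0.05. Igf2 averaged 6.91 ± 0.18 (SD, n = 8) in aged impaired arrays and 6.63 ± 0.38 (SD, n = 6) in aged unimpaired arrays. The log2 difference, aged impaired minus aged unimpaired, was 0.28 ± 0.20 (SE; limma, adjusted p = 0.820), with a 95% interval of -0.13 to 0.69. The groups overlapped, and the interval reaches differences close to those between aged impaired and young arrays. For the other 6 members the log2 difference lay between -0.08 for Igf2r and 0.08 for Igfbp5.

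Markers of the cells that make Igf2 elsewhere in the brain were read beside it. Of 17 genes listed for meninges and fibroblasts, 16 were on the array and 4 passed the limit, while 12 were dim, among them the collagens Col1a1 and Col1a2, the proteoglycan Ogn and the transporter Slc6a13. Of the 4 that passed the limit, 2 rose and 1 fell in aged minus young, where 3.09% of all tested genes rose and 0.628% fell. The matrix proteoglycan Dcn fell, with a log2 difference of -0.71 ± 0.15 (SE; limma, adjusted p = 0.00857). The prostaglandin D synthase Ptgds rose by 0.56 ± 0.10 (SE; limma, adjusted p = 9.29e-04), and it is also made by oligodendrocytes. Aebp1 rose by 0.32 ± 0.08 (SE; limma, adjusted p = 0.0328), a call lost without aged impaired replicate 3 or 6 or young replicate 2 or 8, with adjusted p up to 0.0606. It was also lost with no filter (limma, adjusted p = 0.0554) and with each array centred (limma, adjusted p = 0.0761). Lum, a relative of Dcn, had a log2 difference of -0.59 ± 0.24 (SE; limma, adjusted p = 0.231). The summed linear signal of the 4 ranged between 3531 and 8430 in aged arrays and between 3207 and 3621 in young arrays. Ptgds was by far the brightest, with mean log2 signals of 12.06 in aged and 11.50 in young arrays. Dcn, the next brightest, had 7.49 and 8.20, so the sum mostly follows Ptgds and does not measure meningeal or fibroblast content. The part of these 4 markers in the Igf2 difference was not tested. Of the choroid plexus and ependyma list, only the transthyretin gene Ttr passed, with linear signals between 26.6 and 724 in aged arrays and between 51.8 and 725 in young arrays, and Kl, Folr1, Kcnj13 and Otx2 were dim. The 8 tested markers of CA1 pyramidal cells were all well above the limit, with lowest means of 9.80 in aged and 9.72 in young arrays, and none was called.

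Across the 23 arrays, with each group's mean subtracted, signals of Igf2 went highest with the standardized mean of the meningeal and fibroblast markers. Pearson's r was 0.594 (permutation p = 0.00965) and Spearman's rho was 0.495 (permutation p = 0.0174). Of 63 relations computed in this family, none passed the adjustment, and these had adjusted p of 0.608 and 0.775. Without the 2 arrays farthest from the median on the x axis r was 0.432, and within the groups it was 0.504 in aged impaired, 0.139 in aged unimpaired and 0.763 in young arrays. With Igfbp6 Igf2 had an r of -0.0948 (permutation p = 0.717, adjusted p = 0.991; rho = -0.00593, permutation p = 0.980), and without those arrays r was 0.0476. For the choroid plexus and ependyma list, which is Ttr alone, r with Igf2 was 0.0470 (permutation p = 0.843, adjusted p = 0.991). The remaining marker lists had r between -0.0237 for pericytes and smooth muscle and 0.375 for endothelium.

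Genes that carry the IGF signal inside the cell were mostly near 0. Of 51 genes listed for insulin and IGF signalling, 34 were tested, 2 rose and 0 fell in aged minus young, beside the 3.09% of all genes that rose and the 0.628% that fell. The list's median log2 difference was 0.02, against 0.01 over all genes. Ptpn11, the tyrosine phosphatase SHP-2 that links growth factor receptors to the MAP kinase path, had lowest, median and highest signals of 11.74, 11.94 and 12.23 in aged arrays and 11.51, 11.57 and 11.79 in young arrays. Above the highest young array stood 13 of the 14 aged arrays. Its log2 difference was 0.36 ± 0.05 (SE; limma, adjusted p = 4.32e-05) in aged minus young, 0.31 ± 0.05 in aged impaired minus young and 0.43 ± 0.06 in aged unimpaired minus young. All 3 were called, and the mean of its passing probe sets gave a smaller 0.19 ± 0.03 in aged minus young (SE; limma, adjusted p = 8.20e-04). Rps6, the ribosomal protein that S6 kinase phosphorylates below mTOR, had a log2 difference of 0.14 ± 0.03 (SE; limma, adjusted p = 0.0117), with 9 of the 14 aged arrays above every young array. The adaptor Grb14, which restrains insulin receptor signalling, had 0.16 and the translation repressor Eif4ebp2 had -0.17, and neither passed.

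**Figure D4:**
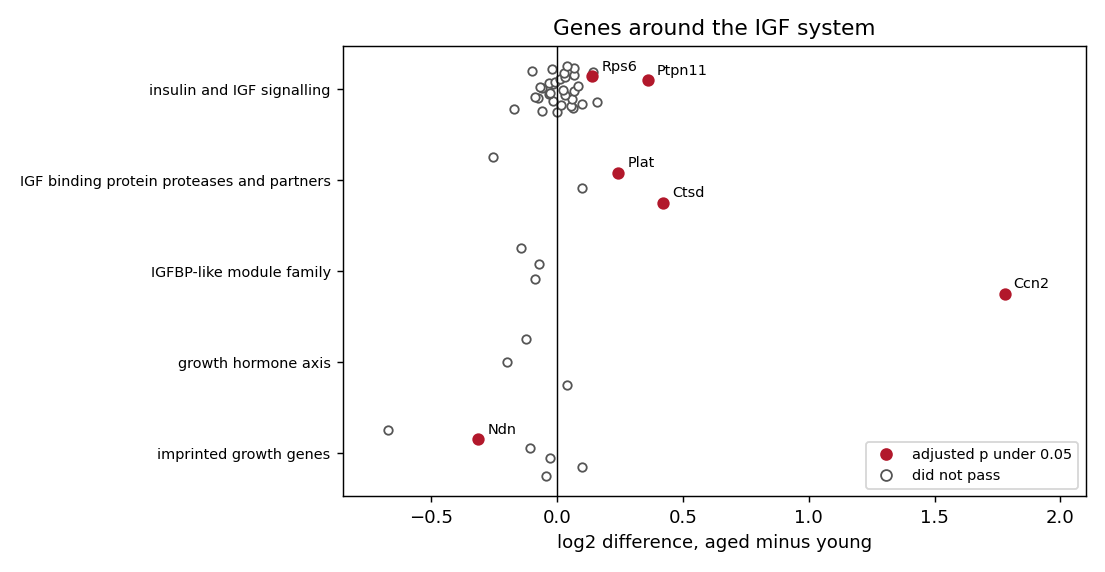
Log2 difference, aged minus young, of every tested gene in 5 lists around the IGF system, filled and named where the adjusted p was under 0.05. Most of the 34 signalling genes lie close to 0, and Ccn2 lies far to the right at 1.78.

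Of the proteases and partners of the binding proteins, 13 of 16 were on the array and 4 were tested. Ctsd, the lysosomal protease cathepsin D, which can cut IGF binding proteins, had lowest, median and highest signals of 10.53, 10.81 and 11.04 in aged arrays and 10.18, 10.35 and 10.60 in young arrays. Its log2 difference was 0.42 ± 0.06 in aged minus young (SE; limma, adjusted p = 2.04e-04), 0.43 ± 0.07 in aged impaired minus young and 0.41 ± 0.08 in aged unimpaired minus young, and all 3 were called. Microglial markers moved the same way: 7 of 12 tested rose in aged minus young, where 3.09% of all tested genes rose. The summed linear signal of the 12 markers ranged between 4826 and 6284 in aged arrays and between 3482 and 4846 in young arrays. Their part in the Ctsd difference was not tested. Plat, the tissue plasminogen activator, rose by 0.24 ± 0.07 (SE; limma, adjusted p = 0.0495), a call lost in 16 of 23 fits that left out 1 array. The call on Plat was kept only without aged impaired replicate 1, 2, 4 or 8, aged unimpaired replicate 1 or young replicate 3 or 8, and adjusted p reached 0.0991 otherwise. Vitronectin, Vtn, had -0.26 ± 0.08 (SE; limma, adjusted p = 0.0888), and the IGFBP-cutting protease Htra1 had 0.10 ± 0.06 (SE; limma, adjusted p = 0.474).

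Among other proteins that share the IGF-binding module, 4 of 11 were tested. Ccn2, connective tissue growth factor, had lowest, median and highest signals of 8.45, 9.29 and 10.93 in aged arrays and 6.29, 7.73 and 8.31 in young arrays. The aged and young arrays did not overlap. The log2 difference was 1.78 ± 0.29 in aged minus young (SE; limma, adjusted p = 5.94e-04), and it was 1.78 in each aged group against young, both called. Ccn3, Crim1 and Htra3 had log2 differences between -0.14 and -0.07, and none passed.

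Igf2 is an imprinted gene, expressed in most tissues from the paternal copy. Of 14 other imprinted genes with roles in growth, 6 were tested and 1 fell in aged minus young, where 0.628% of all tested genes fell. Ndn, the growth-restraining protein necdin of neurons, had a log2 difference of -0.31 ± 0.07 (SE; limma, adjusted p = 0.00887), with 6 of 14 aged arrays below every young array. It was -0.25 ± 0.08 in aged impaired minus young (SE; limma, adjusted p = 0.0740) and -0.40 ± 0.08 in aged unimpaired minus young (SE; limma, adjusted p = 0.0191). The call in aged unimpaired rats was lost without aged unimpaired replicate 4 or 7, at adjusted p of 0.0758 and 0.0550. The zinc finger gene Plagl1 had -0.67 ± 0.24 (SE; limma, adjusted p = 0.146) at signals near the limit. H19, the noncoding neighbour of Igf2 in the same imprinted domain, was dim. Of the growth hormone axis, Sstr1, Sstr2 and Jak2 were tested, and Ghr, Gh1 and the other 8 were dim. None of the 3 was called in any comparison, while 3.71% of all tested genes were called in aged minus young.

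The 5 genes whose log2 signal went most closely with that of Igf2 over the 23 arrays were Plpp4, Nid1, Sema3c, Sox17 and Pcdh18. Pearson's r was 0.81 for Plpp4, 0.81 for Nid1, 0.80 for Sema3c, 0.80 for Sox17 and 0.76 for Pcdh18. The arrays share the age difference, and with group means subtracted r was 0.72, 0.54, 0.60, 0.60 and 0.56 for the same genes in that order. They are described with no test of likeness, since they were picked for it. Nid1, a basement membrane protein, had lowest, median and highest signals of 5.51, 5.93 and 6.26 in aged arrays and 6.32, 6.65 and 7.29 in young arrays, with no overlap. Sema3c, a secreted guidance protein, had 4.25, 5.63 and 6.49 in aged arrays and 6.13, 7.47 and 7.75 in young arrays. Sox17, a transcription factor of endothelium, had 6.87, 7.39 and 7.66 in aged arrays and 7.27, 7.76 and 8.16 in young arrays.

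**Figure D5:**
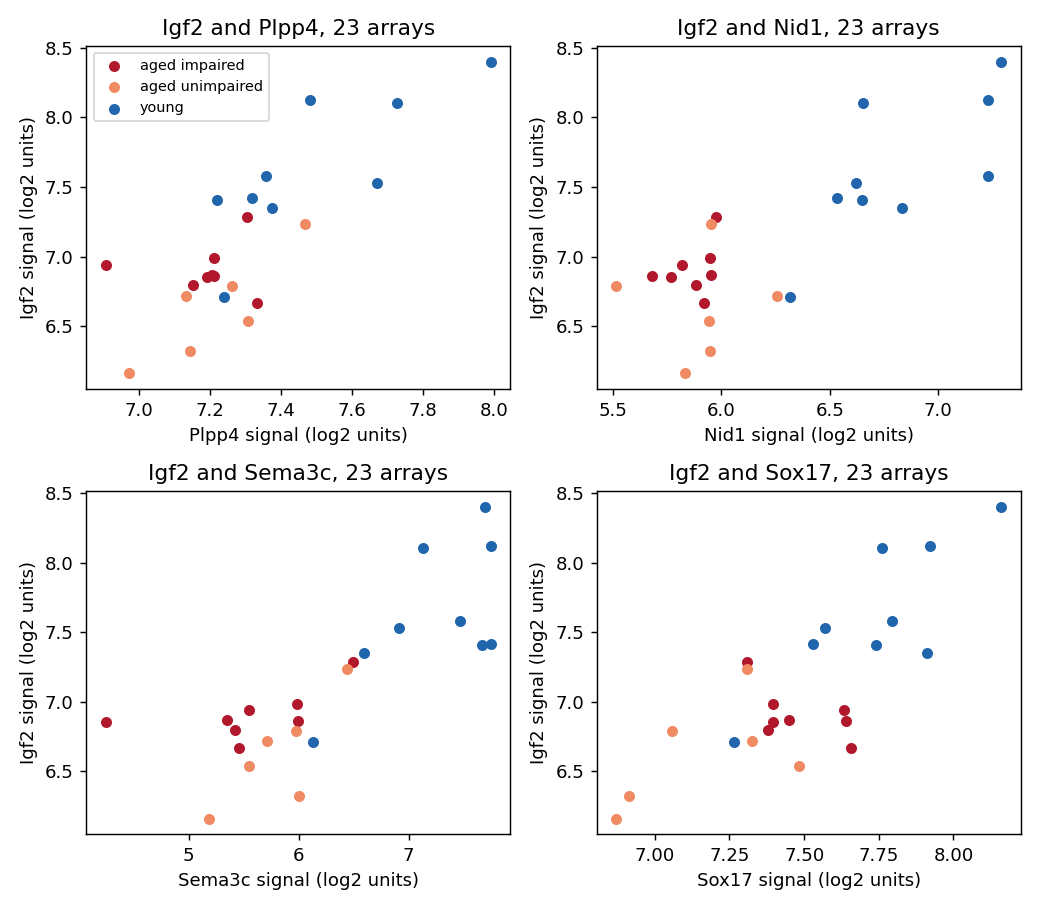
Log2 signal of Igf2 (vertical axis) against that of Plpp4, Nid1, Sema3c and Sox17 (horizontal axes) in the 23 arrays, coloured by group. Aged arrays lie at lower left and most young arrays at upper right, and young replicate 5, at 6.71 for Igf2, lies near the aged arrays in each panel.

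All 5 were called lower in aged minus young, with log2 differences of -0.93 ± 0.10 for Nid1, -1.56 ± 0.23 for Sema3c, -0.40 ± 0.09 for Sox17, -0.29 ± 0.08 for Plpp4 and -0.17 ± 0.05 for Pcdh18 (SE). Likeness was measured over both ages, so this direction is in part fixed by the choice. The call on Plpp4, a lipid phosphatase, was kept only without aged unimpaired replicate 1 or young replicate 5 or 9, and adjusted p reached 0.107 otherwise. The call on Pcdh18, a protocadherin, was lost in 13 of 23 such fits, with adjusted p up to 0.0947. Of 13 endothelial markers tested, 4 fell in aged minus young, namely Slco1c1, Sox17, Sox18 and Ramp2, where 0.628% of all tested genes fell. Sox17 is the gene picked above for its likeness to Igf2. Of the 13, 5 had a log2 difference above 0, and the list's median was -0.06, against 0.01 over all genes. The calls on Sox18 and Ramp2 were lost in 18 and 16 of the 23 fits without 1 array. The summed linear signal of the 13 had lowest, median and highest values of 4556, 4948 and 6246 in aged arrays. In young arrays the same values were 4557, 5581 and 6317. With group means subtracted, Igf2 and the standardized mean of the 13 had an r of 0.375 (permutation p = 0.07365, adjusted p = 0.6815). Spearman's rho was 0.470 (permutation p = 0.0310, adjusted p = 0.775), and r was 0.251 without the 2 arrays farthest from the Igf2 median. The part of the 13 markers in the Igf2 difference between ages was not tested. For Igfbp6 the closest genes were Fbxo7, Hspb8, Clcn2, Sdsl and Rab23, with r between 0.71 and 0.78, or between 0.61 and 0.74 with group means subtracted. Of these, the small heat shock protein gene Hspb8 alone was called in aged minus young, at 0.63 ± 0.11 (SE; limma, adjusted p = 0.00181).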

How the data were processed

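CA1 RNA was measured on Affymetrix rat genome arrays. The values deposited by the authors are log2 signals, and the submitters' processing notes name GCRMA. GCRMA corrects background, normalizes arrays and summarizes probes. No version or setting of it is given in the sources used here. The table held 31099 probe sets and 24 sample columns, of which 1 was blank, for an aged unimpaired array left out by the submitters on quality grounds. Groups follow the labels, and young replicate 9, whose column lies among those of aged unimpaired arrays, was kept as young.

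Platform annotation gave 1 symbol to 20832 probe sets, several to 436 and none to 9831. Values were used as deposited. A gene's value was that of its probe set of highest mean among those above 4 in at least 6 arrays, which left 9076 genes. Limma 3.58.1 in R 4.3.3 fitted 3 group means and 4 comparisons, with Benjamini-Hochberg adjustment over all genes within each comparison and calls at 0.05. The aged mean weights the aged groups by their 8 and 6 arrays. Correlations used 100000 permutations within groups, 2-sided. The number of arrays limits precision, array medians lay between 4.20 and 4.28, and no batch was given. Scripts were tested on simulated data.

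Members, pathway lists, marker lists and the rule for naming genes were chosen with earlier results of these data known. The rule names all 10 members, the called genes of each pathway list up to 4 per comparison, and the 5 tested genes of highest Pearson correlation with each member called in aged minus young. Uncalled genes named in lists were chosen after their values were seen. Alternatives covered the filter, probe set choice, scaling, array weights, moderation, groups fitted, the replicate block and leaving out each array. Same-numbered arrays of different groups did not deviate together, with correlations of their deviations between -0.267 and 0.116 over 20 pairs, so the numbers were not used as a block in the reported fit. RefSeq windows in GRCr8 were matched by symbol for all 10 genes.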

Additional observations from a re-analysis of the deposited data

Results flagged for a closer look

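Of 33 groups of IGF system signals examined by Dixon's test, 3 held an array apart from the rest of its group. Chance flags about 1 in 20 groups. For the second Igf2r probe set, young replicate 5 was the highest young array at 6.79, against 6.59 for the nearest. Young replicate 5 is also the array with the lowest young Igf2. For Igfbp2, aged impaired replicate 7 was the lowest of its group at 4.63, against 5.38 for the nearest. For Igfbp6, aged unimpaired replicate 4 was the lowest of its group at 4.03, against 4.32 for the nearest.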

How the results depend on the processing

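Igf2 kept its direction and its call in aged minus young under all alternatives run, between -0.95 and -0.46. The count of IGF system genes called in aged minus young was 1 instead of 2 with no filter, with a stricter filter (under which Igfbp6 was not tested), with probe sets as the unit, with each array centred and with equal weight of the aged groups. In each, the lost gene was Igfbp6. With array weights 2 were called in aged impaired minus young, and 149 genes instead of 69 were called in aged unimpaired minus young. With only the aged groups in the fit, 1 gene was called between them. Leaving out 1 array gave 224 to 407, 228 to 439, 35 to 86 and 0 to 0 genes called in aged, aged impaired and aged unimpaired minus young and in aged impaired minus aged unimpaired, and 1 to 2, 1 to 2, 1 to 1 and 0 to 0 members. The lowest counts came without young replicate 2, aged impaired replicate 6 and aged unimpaired replicate 4. With the replicate number as a block, 159, 165, 31 and 1 genes were called, and 0 members in either aged group against young, where Igf2 differed by -0.74 and -0.99 with adjusted p of 0.0815 and 0.0816. The block also ended the calls in aged minus young on Rps6 (0.14, adjusted p = 0.0919), Ndn (-0.29, 0.0793), Dcn (-0.66, 0.0552), Aebp1 (0.34, 0.0705), Plat (0.26, 0.0835), Plpp4 (-0.32, 0.0674), Sox18 (-0.43, 0.124) and Ramp2 (-0.30, 0.140), in aged impaired minus young on Rps6 (0.14, 0.123), and in aged unimpaired minus young on Ccn2 (1.82, 0.0647), Ctsd (0.41, 0.0647) and Ndn (-0.37, 0.170). The numbers are not known to pair rats, and arrays correlated best with their own number in 2 of 40 cases. Outside the fits without 1 array and counting the block, the aged minus young call was lost in 7 of 11 alternatives for Plat, 6 of 11 for Plpp4 and 6 of 10 for Pcdh18, and in 4 of 11 each for Sox18 and Ramp2.

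Reversed values were all uncalled and near 0. In aged minus young, Igf2r had -0.0177 with centring, -0.00756 with quantile normalization and -0.0125 with the replicate block, and Igfbp7 had -0.0144 and -0.00665 with the first pair of these. In aged impaired minus young, Igf2r had 0.00275 with the mean of probe sets, Igfbp2 0.0168 with array weights, and Igfbp7 -0.000843 with centring and -0.000776 with array weights. In aged unimpaired minus young, Igfbp7 had 0.0045 with array weights and 0.0242 with the block. Between the aged groups the block gave 0.0357 for Igf1r and -0.00645 for Igfbp6, and array weights gave -0.00527 for Igfbp7. Leaving out 1 array turned the sign of Igf2r (-0.0157 to 0.0255), Igfbp2 (-0.16 to 0.00119) and Igfbp7 (-0.0377 to 0.0575) in aged minus young, of Igf1r (-0.0195 to 0.0666), Igfbp2 (-0.131 to 0.0826) and Igfbp7 (-0.0302 to 0.065) in aged impaired minus young, of Igfbp7 (-0.0478 to 0.0475) in aged unimpaired minus young, and of Igf1r (-0.0694 to 0.0167), Igfbp6 (-0.0219 to 0.0775) and Igfbp7 (-0.0273 to 0.0547) between the aged groups. The cause was not tested. Signals near the limit of 4, as for Igfbp6 and the dim genes, bound what these arrays can show.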
